A study of Mus musculus with 6 samples.

Results

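The fetuins Ahsg (ENSMUSG00000022868, fetuin-A) and Fetub (ENSMUSG00000022871, fetuin-B) were followed in nuclei of the mouse left ventricle. These 2 genes, of 33696 in the count matrices, were chosen by their small p-values when fibroblast nuclei of mutant hearts were compared with those of wild-type hearts on the same diet, so that contrast is described here without a test. The fetuins are secreted glycoproteins of the cystatin superfamily, made mainly by the liver and carried in plasma. Fetuin-A binds calcium phosphate, keeps mineral from precipitating in blood and soft tissue, inhibits the insulin receptor and binds transforming growth factor beta. Fetuin-B inhibits ovastacin, the protease that hardens the coat of the fertilised egg, and neither protein is usually thought of as a product of heart cells.

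Single-nucleus RNA sequencing was performed on left ventricles of 12-week-old male mice in 6 libraries, 2 in each of 3 groups. The WT-CD group held wild-type littermates fed control diet, the R403Q-CD group held Myh6+/R404Q mice (the allele is called R403Q) fed that diet too, and R403Q-EMPA animals of this genotype ate control diet with 0.15 mg/g empagliflozin (EMPA), about 15 mg/kg, an inhibitor of the sodium-glucose cotransporter in the kidney. The allele lies in the cardiac myosin heavy chain gene, which cardiomyocytes express, and diets began at 9 to 10 weeks of age, so that the age given leaves about 2 weeks of diet although the labels also name 16 weeks. The study's methods give 2 cardiac samples for the nuclei, and neither they nor the labels say which mouse each library came from, so p-values measure the spread between libraries, which may be in part technical. No group held wild-type mice on EMPA.

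Of 69249 barcodes, 46005 nuclei passed the filters (6409 to 9514 per library, with a median of 2663 to 4065 unique molecular identifiers, UMIs, per nucleus). They fell into 24 clusters that were named from marker genes, with both fetuins left out of the genes used to cluster. Fibroblast-like nuclei (14147) expressed Pdgfra at 599 CPM (a gene's UMIs scaled to a common total of all UMIs of the class in a library, given as the mean over libraries) against 4.44 CPM in cardiomyocyte-like nuclei, and endocardial-like nuclei (3200), which line the chambers, expressed Npr3 at 2859 CPM against 31.1 CPM in fibroblast-like nuclei. R403Q-EMPA replicate 1 stood apart in its nuclei. It had the lowest shares of fibroblast-like (20.9% against 28.4% to 38.7%) and pericyte-like nuclei (4.90% against 8.83% to 13.5%), and it gave 240 of the 335 nuclei of the small fibroblast-like cluster 15, led by Thbs4, Ltbp2 and Cilp, and 1176 of the 2694 nuclei of the endothelial-like cluster 6. It also held 100 of 174 UMIs of Hp and 111 of 145 UMIs of Cyp2e1, both liver genes. Any pair of libraries shared 9 to 30 barcodes, at most 0.378%, and none of those was positive for the same fetuin in both.

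The 2 genes are neighbours on mouse chromosome 16 and are read from the same strand. Their promoters are shown because both genes are liver genes whose UMIs are described below in 2 kinds of heart nuclei. Each sequence is 250 bases before and 50 bases after a transcription start (RefSeq, GRCm38.p6, plus strand), a build older than the GRCm39 used for the counts. Capitals mark matches, on either strand, to the TATA box TATAAA, to the box CCAAT or to TTGCNNAA, a motif of C/EBP factors.
Ahsg, chr16:22891765-22892064: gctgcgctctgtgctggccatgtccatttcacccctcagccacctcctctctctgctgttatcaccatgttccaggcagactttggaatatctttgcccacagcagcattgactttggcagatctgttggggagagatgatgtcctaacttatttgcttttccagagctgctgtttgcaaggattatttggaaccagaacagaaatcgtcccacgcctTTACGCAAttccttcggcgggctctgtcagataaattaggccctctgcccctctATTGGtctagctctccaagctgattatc
Fetub start 1, chr16:22918132-22918431: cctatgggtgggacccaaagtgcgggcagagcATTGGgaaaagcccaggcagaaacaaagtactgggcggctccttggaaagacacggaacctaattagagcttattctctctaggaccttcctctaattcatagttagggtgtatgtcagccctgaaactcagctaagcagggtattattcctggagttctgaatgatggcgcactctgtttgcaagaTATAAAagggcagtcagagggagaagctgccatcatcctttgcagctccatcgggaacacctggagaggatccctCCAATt
Fetub start 2, chr16:22919972-22920271: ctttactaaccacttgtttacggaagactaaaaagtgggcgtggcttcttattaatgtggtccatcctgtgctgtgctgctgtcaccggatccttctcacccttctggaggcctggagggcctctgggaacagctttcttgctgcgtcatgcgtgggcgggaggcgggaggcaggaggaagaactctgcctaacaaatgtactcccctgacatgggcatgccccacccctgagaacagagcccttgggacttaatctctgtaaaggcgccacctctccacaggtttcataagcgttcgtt
The Ahsg promoter held 1 C/EBP match, which ends 25 bases before the start, a motif found in 10.8% of 32851 RefSeq promoters. The first Fetub start had a TATAAA match 26 to 31 bases upstream, present in 13.6% of promoters, whereas the second Fetub start had no match to any motif searched. Matches to CCAAT, found in 37.4% of promoters, occurred once in the Ahsg window and in 2 places around the first Fetub start. The palindromic HNF1 and NF1 motifs and the E-box CACGTG were searched as well, occur in 0.00913%, 0.0365% and 7.15% of promoters, and had no match in the 3 windows. These matches describe letters only. No match overlapped another.

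The 2 fetuins were highest in different nuclei. Ahsg was highest in endocardial-like nuclei, which held 2413 of its 3235 UMIs (74.6%) while making up 6.96% of all nuclei. Fetub was highest in fibroblast-like nuclei, which held 605 of its 680 UMIs (89.0%) and made up 30.8% of nuclei. Outside these 2 classes neither gene averaged more than 3.73 CPM, and epicardial-like nuclei held no UMI of either gene, which allows up to 2.67 CPM (3 counts over the class).

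**Figure D1:**
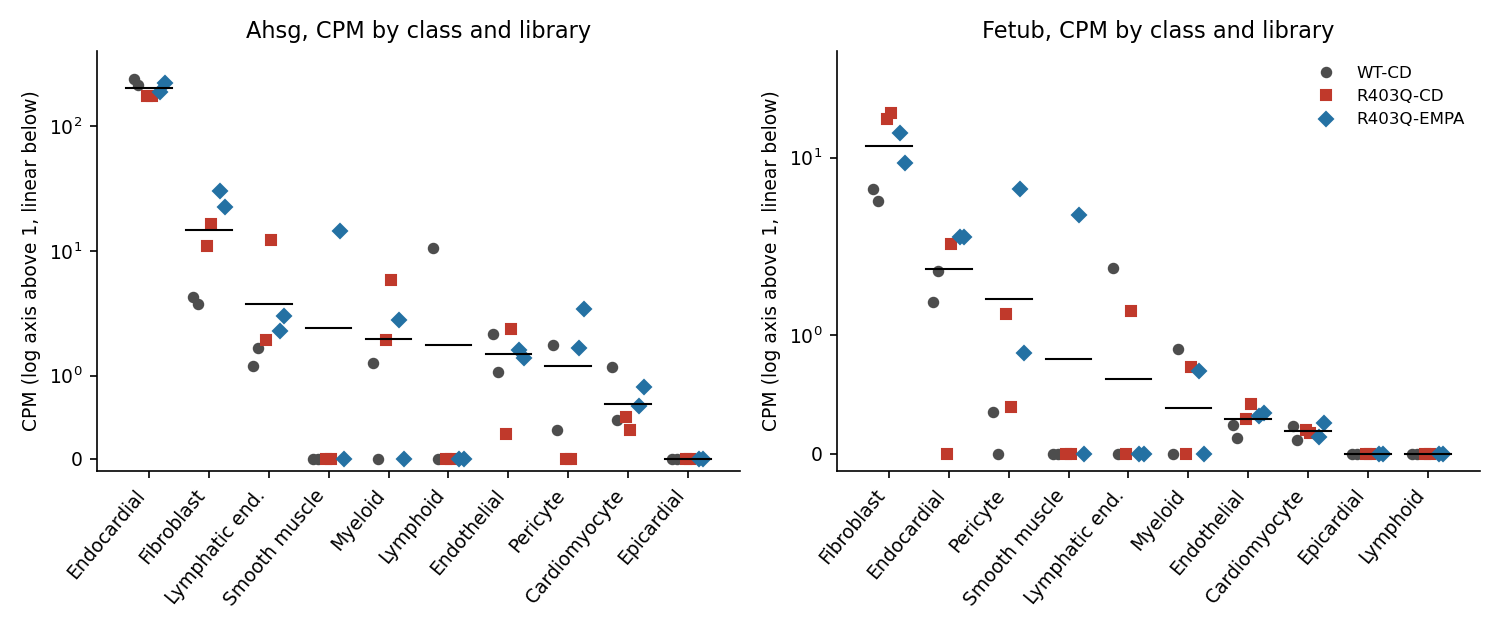
CPM of Ahsg (left) and Fetub (right) in 10 classes of nuclei, 1 point per library coloured by group, with a black line at the mean of 6 libraries; the axis is logarithmic above 1 CPM and linear below. Ahsg lies between 174 and 235 CPM in endocardial-like nuclei, above its range in every other class, and Fetub between 5.67 and 17.9 CPM in fibroblast-like nuclei.

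In endocardial-like nuclei Ahsg measured 235 and 215 CPM (WT-CD), 174 and 175 CPM (R403Q-CD), and 185 and 219 CPM (R403Q-EMPA). Every library was therefore within a narrow band, with a mean of 201 ± 25.7 CPM (SD, n = 6). Ahsg UMIs were found in 31.0% to 37.3% of these nuclei, at a median depth of 2616 to 4413 UMIs, and 263 of the 1081 positive nuclei had 3 or more Ahsg UMIs, up to 23 in 1 nucleus. Fibroblast-like nuclei came next, with 14.7 ± 10.4 CPM, and the endocardial-like mean was 13.7 times higher without overlap between libraries. The within-library difference on the log2(CPM + 1) scale was 4.00 ± 1.22 and was positive in 6 of 6 libraries (exact two-sided permutation p = 0.03125, the smallest that 6 libraries allow; adjusted p = 0.0938 over 18 neighbouring pairs of classes).

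Below the fibroblast-like class the order of Ahsg was not resolved. Lymphatic endothelial-like nuclei averaged 3.73 CPM from 15 UMIs, below fibroblast-like nuclei in 6 of 6 libraries although the ranges over libraries overlapped (adjusted exact permutation p = 0.0938). Smooth muscle-like, myeloid-like, lymphoid-like, endothelial-like, pericyte-like and cardiomyocyte-like nuclei followed between 2.39 and 0.663 CPM, and no neighbouring pair among these 7 classes differed beyond the spread (adjusted exact permutation p of 0.422 to 0.683). Epicardial-like nuclei came last, but with 245 nuclei in all their upper limit of 2.67 CPM lies above the cardiomyocyte-like level. Endothelial-like nuclei, which line the vessels rather than the chambers, had 1.48 ± 0.754 CPM of Ahsg from 55 UMIs.

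Fetub followed another order. Endocardial-like nuclei came second with 2.37 ± 1.42 CPM, 4.91 times below fibroblast-like nuclei at 11.7 ± 5.18 CPM, and the libraries of the 2 classes did not overlap (6 of 6 higher in fibroblast-like nuclei; adjusted exact permutation p = 0.0938). Pericyte-like nuclei averaged 1.59 CPM, but R403Q-EMPA replicate 1 alone reached 6.65 CPM, from 8 of the 14 UMIs, and the class overlapped endocardial-like nuclei. The remaining classes lay at or under 0.797 CPM, and lymphoid-like and epicardial-like nuclei held no Fetub UMI, which allows up to 2.59 and 2.67 CPM.

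The fibroblast signal was set against cardiomyocyte-like nuclei, a class not known to make either protein, whose level served as background. Both genes were chosen in fibroblast nuclei, where they had enough UMIs to be tested, and neither had enough in cardiomyocyte-like nuclei. The choice thus favours a higher fibroblast level, and the tests of CPM and of shares between these classes are not independent of it. For Ahsg, fibroblast-like nuclei had 4.30 and 3.78 CPM (WT-CD), 10.9 and 16.5 CPM (R403Q-CD), and 30.2 and 22.3 CPM (R403Q-EMPA), from 48, 42, 101, 155, 217 and 112 UMIs. Cardiomyocyte-like nuclei of the same libraries had 1.18, 0.461, 0.497, 0.342, 0.632 and 0.866 CPM. Fibroblast values were thus above every value of the cardiomyocyte-like class. Its cluster 12, with Nppa among its leading genes, was about as shallow as fibroblast-like nuclei (median 2325.5 to 3113.5 UMIs) and held more, with 3.92 and 5.53 CPM in R403Q-EMPA (5 and 4 UMIs), the latter above both WT-CD fibroblast values. In the other 4 libraries this cluster held 1 Ahsg UMI in R403Q-CD replicate 1 (2.68 CPM) and 0 in the rest, where its 59 to 222 nuclei allow up to 4.41 to 17.6 CPM. The within-library difference was 2.93 ± 1.19 on the log2(CPM + 1) scale, positive in 6 of 6 libraries (exact permutation p = 0.03125, unchanged by the adjustment over 4 tests). All 4 tests, of CPM and of shares of the same UMIs, gave this smallest possible p, so the adjustment could not change it. Over the 18 neighbouring pairs of classes the same exact permutation p became 0.0938, so passing depends on the smaller family. With predicted doublets kept the Ahsg difference was 2.31 and no longer passed (exact permutation p = 0.0625).

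For Fetub, fibroblast-like nuclei had 6.63 and 5.67 CPM (WT-CD), 16.6 and 17.9 CPM (R403Q-CD), and 13.8 and 9.37 CPM (R403Q-EMPA), from 74, 63, 154, 168, 99 and 47 UMIs. Cardiomyocyte-like nuclei had between 0.115 and 0.26 CPM, which is 1 to 3 UMIs per library and 12 in all. All fibroblast values again lay above all cardiomyocyte values. The difference was 3.30 ± 0.638 on the log2(CPM + 1) scale, positive in 6 of 6 libraries (exact permutation p = 0.03125, adjusted p = 0.03125).

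Shares of positive nuclei gave the same direction. Cardiomyocyte-like nuclei were deeper (median 6889 to 12100 UMIs per nucleus against 2528 to 4563 in fibroblast-like nuclei), so each nucleus was thinned to 500 UMIs before shares were compared. After thinning, 0.761% ± 0.585 of fibroblast-like nuclei held an Ahsg UMI against 0.0252% ± 0.04 of cardiomyocyte-like nuclei, and the values for Fetub were 0.472% ± 0.263 and 0.0401% ± 0.0721 (SD, n = 6). Without thinning the shares were 3.44% against 0.542% for Ahsg and 3.50% against 0.174% for Fetub. The thinned difference was positive in 6 of 6 libraries for each gene, by 0.736 ± 0.595 and 0.432 ± 0.301 percentage points (exact permutation p = 0.03125 for each).

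Within fibroblast-like nuclei the R403Q-CD libraries lay above the WT-CD libraries for both genes, which is the contrast by which the genes were chosen. The group mean of Ahsg was 13.7 CPM in R403Q-CD and 4.04 CPM in WT-CD, a ratio of 3.39, and that of Fetub was 17.2 and 6.15 CPM, a ratio of 2.81. The groups did not overlap. Separation in either direction arises in 0.333 of random orders of 2 libraries against 2, here and in each such comparison below. The share of all genes without overlap was not counted. Cardiomyocyte markers in the same fibroblast-like nuclei were also without overlap, as their 8 genes, none of them at 0, summed to 1681 and 1279 CPM (WT-CD), 2091 and 2209 CPM (R403Q-CD), and 2208 and 2269 CPM (R403Q-EMPA). The fetuin levels of cardiomyocyte-like nuclei, given above, were at most 1.18 CPM. The fitted log2 fold changes were 1.76 ± 0.26 for Ahsg and 1.49 ± 0.21 for Fetub (SE). With the nuclei and clusters used here these were the fifth and the third gene by p, and edgeR called 0% of 15069 genes in this contrast (456 had an unadjusted p under 0.05, and DESeq2 called 9). Col4a6, a basement membrane collagen chain next to the fetuins in that order, had a log2 fold change of 0.97 ± 0.14, and Rgs6, Mov10l1 and Ptgds, the other genes of the first 6, named after their values were seen, had -1.0, -2.07 and 1.61.

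**Figure D2:**
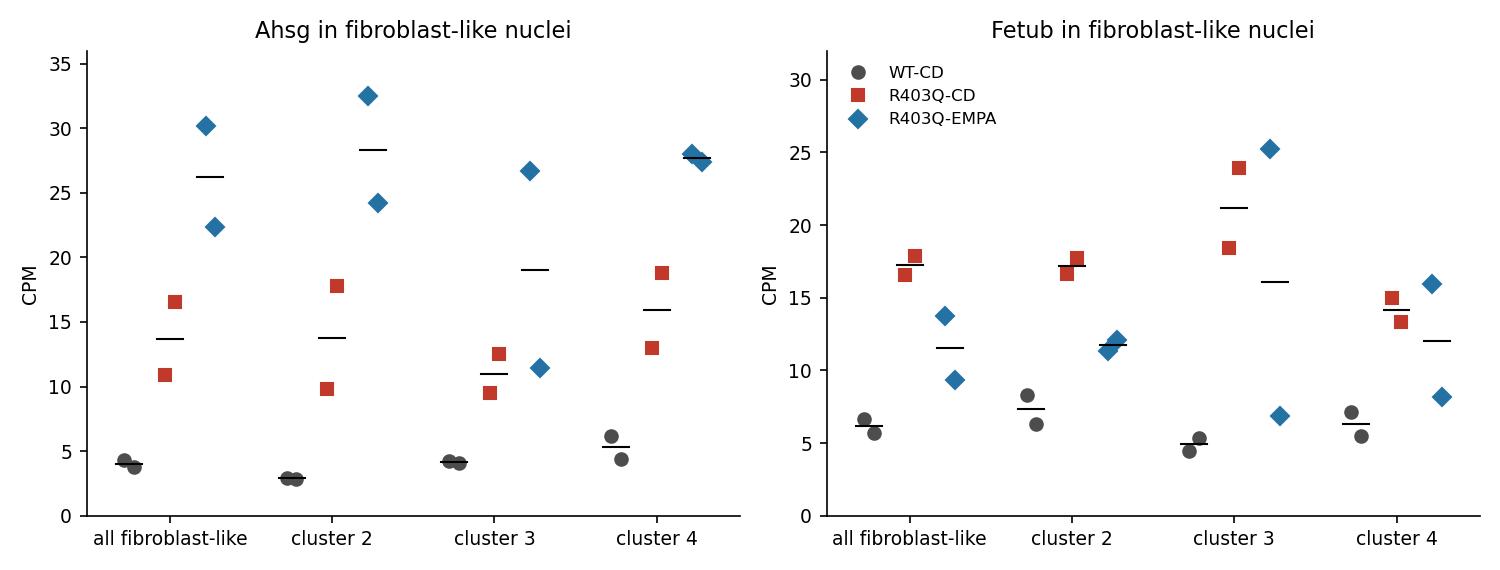
CPM of Ahsg (left) and Fetub (right) in all fibroblast-like nuclei and in clusters 2, 3 and 4, 1 point per library coloured by group, with a black line at the mean of the 2 libraries. In all fibroblast-like nuclei Ahsg has group means of 4.04, 13.7 and 26.2 CPM from WT-CD to R403Q-EMPA, whereas Fetub has 6.15, 17.2 and 11.6 CPM.

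In fibroblast-like nuclei of empagliflozin-fed mutant hearts the Ahsg level lay above, and the Fetub level below, that of mutant hearts on control diet. The libraries did not overlap, with the limit given above, and neither difference passed the test. The comparison shares the R403Q-CD libraries with the contrast that chose the genes. Their high fibroblast values took part in that choice, which by itself favours a lower level of either gene in R403Q-EMPA, so the fall of Fetub is no separate evidence. Ahsg averaged 26.2 CPM in R403Q-EMPA, 1.92 times R403Q-CD, with a log2 fold change of 0.90 ± 0.23 (edgeR adjusted p = 0.161). Fetub averaged 11.6 CPM, 0.671 times R403Q-CD, with a log2 fold change of -0.60 ± 0.21 (edgeR adjusted p = 0.28). Without R403Q-EMPA replicate 1 the values were 0.68 for Ahsg and -0.90 for Fetub (edgeR adjusted p = 0.735 and 0.463). In that comparison 0.378% of 15069 genes were called. The number of Ahsg UMIs for each Fetub UMI was 0.649 and 0.667 (WT-CD), 0.656 and 0.923 (R403Q-CD), and 2.19 and 2.38 (R403Q-EMPA). This ratio was thus higher in both R403Q-EMPA libraries than in the other 4. It was not tested, since an exact test of 2 libraries against 2 cannot give a p below 0.333.

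Setting R403Q-EMPA against WT-CD uses the wild-type libraries whose low fibroblast values took part in choosing the genes, so it is described without a test. Ahsg in fibroblast-like nuclei had a log2 fold change of 2.66 ± 0.26, a ratio of means of 6.5, and Fetub one of 0.89 ± 0.23, a ratio of 1.88, in a comparison where edgeR called 1.21% of genes. Without R403Q-EMPA replicate 1 the log2 fold changes were 2.44 and 0.59.

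The share of fibroblast-like nuclei with an Ahsg UMI followed the CPM in part. In the 6 libraries it was 1.09% and 1.01% (WT-CD), 2.48% and 4.4% (R403Q-CD), and 7.72% and 3.97% (R403Q-EMPA), against 0.408% to 0.89% of cardiomyocyte-like nuclei. R403Q-EMPA replicate 2, the shallowest library in this class, lay below R403Q-CD replicate 2 in share but above it in CPM. At 500 UMIs per nucleus the group means were 0.285%, 0.585% and 1.41%. For Fetub the shares were 1.85% and 1.98%, 4.87% and 5.41%, and 4.82% and 2.09% in the same order, with thinned group means of 0.312%, 0.782% and 0.322%. The thinned Fetub shares were 0.353% and 0.271% in WT-CD and 0.482% and 0.161% in R403Q-EMPA. At this depth these 2 groups overlapped, whereas their CPM did not. Most positive nuclei held 1 UMI (274 of 414 for Ahsg, 372 of 461 for Fetub), and the 10 nuclei with most UMIs held 10.5% and 9.09% of the total.

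The 3 large fibroblast-like clusters each showed the difference between WT-CD and the mutant groups. They are parts of the nuclei whose contrast chose the genes, so their values describe that difference and are no separate evidence for it. In cluster 2, led by Duoxa1, Has2 and Gfpt2, Ahsg had 2.94 and 2.87 CPM (WT-CD), 9.82 and 17.8 CPM (R403Q-CD), and 32.5 and 24.2 CPM (R403Q-EMPA). Cluster 3, led by Kcnip1 and Tenm4, had 4.22 and 4.07, 9.50 and 12.5, and 26.7 and 11.4 CPM. Cluster 4, led by Aox3, Fgf10 and Inmt, had 6.21 and 4.39, 13.0 and 18.8, and 28.0 and 27.4 CPM. R403Q-EMPA therefore lay above R403Q-CD without overlap in clusters 2 and 4, but overlapped it in cluster 3.

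Fetub had 8.34 and 6.31 CPM in cluster 2 of the WT-CD libraries, 16.7 and 17.8 CPM (R403Q-CD), and 11.3 and 12.1 CPM (R403Q-EMPA). In clusters 3 and 4 the R403Q-CD means were 21.2 and 14.1 CPM, against 4.91 and 6.31 CPM in WT-CD. The R403Q-EMPA libraries were far apart there, at 25.3 and 6.85 CPM in cluster 3 and 15.9 and 8.15 CPM in cluster 4, and overlapped R403Q-CD. The lower Fetub of R403Q-EMPA was thus without overlap only in cluster 2 of these 3.

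The clusters differed in size between libraries: cluster 3 held 1431 and 981 nuclei (WT-CD), 931 and 694 (R403Q-CD), and 212 and 558 (R403Q-EMPA). Cluster 15, with Thbs4, Cilp and Postn among its leading genes, had 47 Ahsg UMIs in R403Q-EMPA (29.3 and 36.1 CPM), but only 25 nuclei in WT-CD and 22 in R403Q-CD. Without cluster 15 the Ahsg level of all other fibroblast-like nuclei was 4.33 and 3.79, 10.9 and 16.5, and 30.4 and 21.9 CPM in the 3 groups, and Fetub was 6.67 and 5.69, 16.6 and 17.9, and 14.5 and 9.28 CPM.

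Ahsg in endocardial-like nuclei did not follow the fibroblast pattern. The R403Q-CD libraries lay below the WT-CD libraries, at a ratio of means of 0.777 (log2 fold change -0.37 ± 0.15, edgeR adjusted p = 1). R403Q-EMPA had 1.16 times the mean of R403Q-CD without overlap (log2 fold change 0.18 ± 0.15, edgeR adjusted p = 0.756) and 0.898 times that of WT-CD (-0.19 ± 0.15, edgeR adjusted p = 0.643). None of the 3 differences passed. In this class edgeR called 0% of 11502 genes for R403Q-CD against WT-CD (418 had an unadjusted p under 0.05, Ahsg among them at 0.0337, and DESeq2 called 0), 0.852% for R403Q-EMPA against R403Q-CD and 2.18% against WT-CD.

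**Figure D3:**
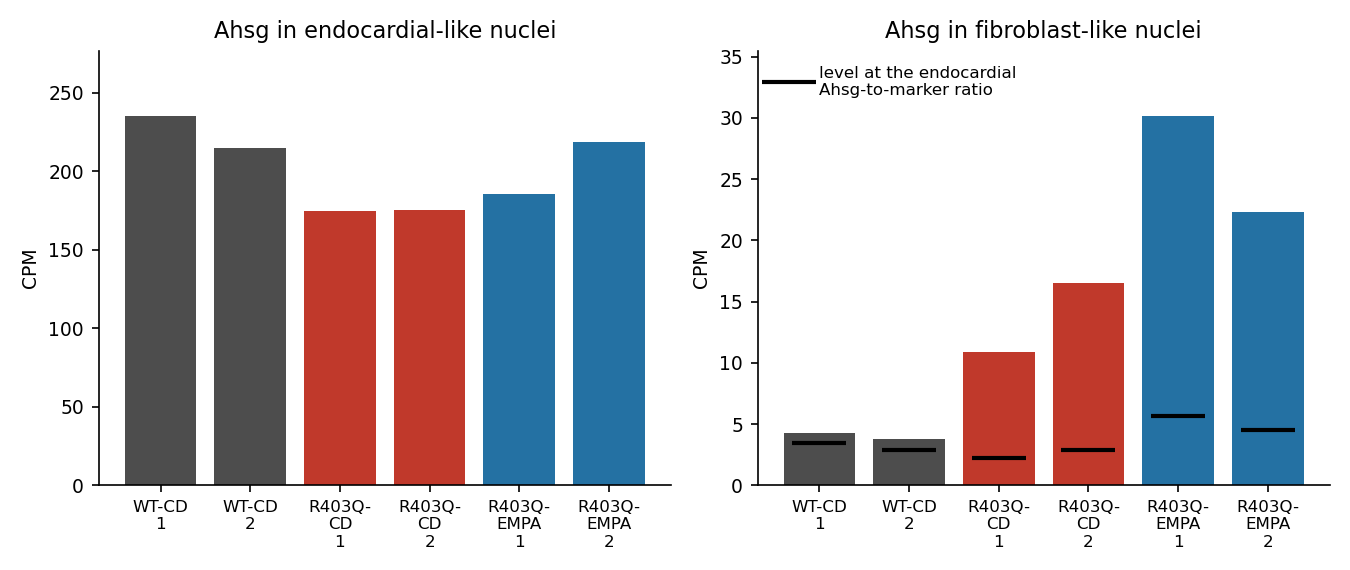
Ahsg CPM in endocardial-like (left) and fibroblast-like nuclei (right), 1 bar per library coloured by group, with separate vertical axes. Black marks give the Ahsg level that the endocardial marker UMIs found in fibroblast-like nuclei would carry at the endocardial ratio, 2.26 to 5.69 CPM, just under the 2 WT-CD bars and well under the 4 mutant bars.

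Because the endocardial-like level was so much higher, endocardial markers were measured in the fibroblast-like nuclei. The 6 markers (Npr3, Nrg1, Tmem108, Cgnl1, Plvap and Hmcn1) summed to 206 and 207 CPM (WT-CD), 212 and 232 CPM (R403Q-CD), and 275 and 236 CPM (R403Q-EMPA) in fibroblast-like nuclei, against 8968 to 16398 CPM in endocardial-like nuclei. None of the 6 was at 0. Cgnl1 and Hmcn1 had the highest means in fibroblast-like nuclei (94.5 and 66.7 CPM) and were also found in endothelial-like nuclei (193 and 542 CPM). Npr3, Nrg1 and Tmem108 had 31.1, 3.27 and 27.0 CPM in fibroblast-like against 2859, 611 and 3332 CPM in endocardial-like nuclei. The level computed next thus depends on which markers are summed. If each UMI of the 6 markers were accompanied by Ahsg in the ratio seen in endocardial-like nuclei of the same library, fibroblast-like nuclei would hold 3.45 and 2.87 CPM of Ahsg (WT-CD), 2.26 and 2.88 CPM (R403Q-CD), and 5.69 and 4.55 CPM (R403Q-EMPA). The measured Ahsg was 1.24 and 1.32 times that level (WT-CD), 4.82 and 5.73 times (R403Q-CD), and 5.31 and 4.90 times (R403Q-EMPA). After thinning to 500 UMIs, fibroblast-like nuclei that had held an Ahsg UMI at full depth had 2.51 endocardial marker UMIs per 10000, and the others had 2.29.

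Most changes in the other classes could not be tested, and those tested were not called. Of 54 combinations of gene, class and comparison outside fibroblast-like nuclei, 6 had enough UMIs to be tested, all of Ahsg in endocardial-like and endothelial-like nuclei, and 0 were called by edgeR (1 had an unadjusted p under 0.05; DESeq2 called 0). Among the untested ones, R403Q-CD lay above WT-CD without overlap for Ahsg in lymphatic endothelial-like (10 against 2 UMIs) and myeloid-like nuclei (11 against 2). The same held for Fetub in pericyte-like (4 against 1) and endothelial-like nuclei (5 against 2). Ahsg in pericyte-like nuclei went the other way (0 against 6). Of the 10 lymphatic UMIs, 9 lay in 3 nuclei of R403Q-CD replicate 2. R403Q-CD replicate 1 and both WT-CD libraries held 1 each there, and differ in CPM only by their class totals. In pericyte-like nuclei R403Q-CD replicate 2 and WT-CD replicate 1 likewise held 1 Fetub UMI each. The share of genes called in endothelial-like nuclei was 0% for R403Q-CD against WT-CD, 0.242% for R403Q-EMPA against R403Q-CD and 0.811% against WT-CD. Ahsg log2 fold changes there were -0.14 ± 0.78, 0.14 ± 0.78 and 0.01 ± 0.75, with an SE too wide to resolve changes of the size seen in fibroblast-like nuclei between the mutant groups. In the sum of all nuclei except fibroblast-like ones, Fetub had 0.28 ± 0.52, 0.66 ± 0.48 and 0.94 ± 0.49 for the same 3 comparisons (edgeR adjusted p = 1, 0.647 and 0.36; 0%, 0.0662% and 2.8% of genes called). Ahsg had -0.63 ± 0.26, 0.48 ± 0.26 and -0.14 ± 0.26 in that sum (edgeR adjusted p = 0.9999, 0.543 and 0.824). Its first and last values thus had the sign opposite to that in fibroblast-like nuclei.

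**Figure D4:**
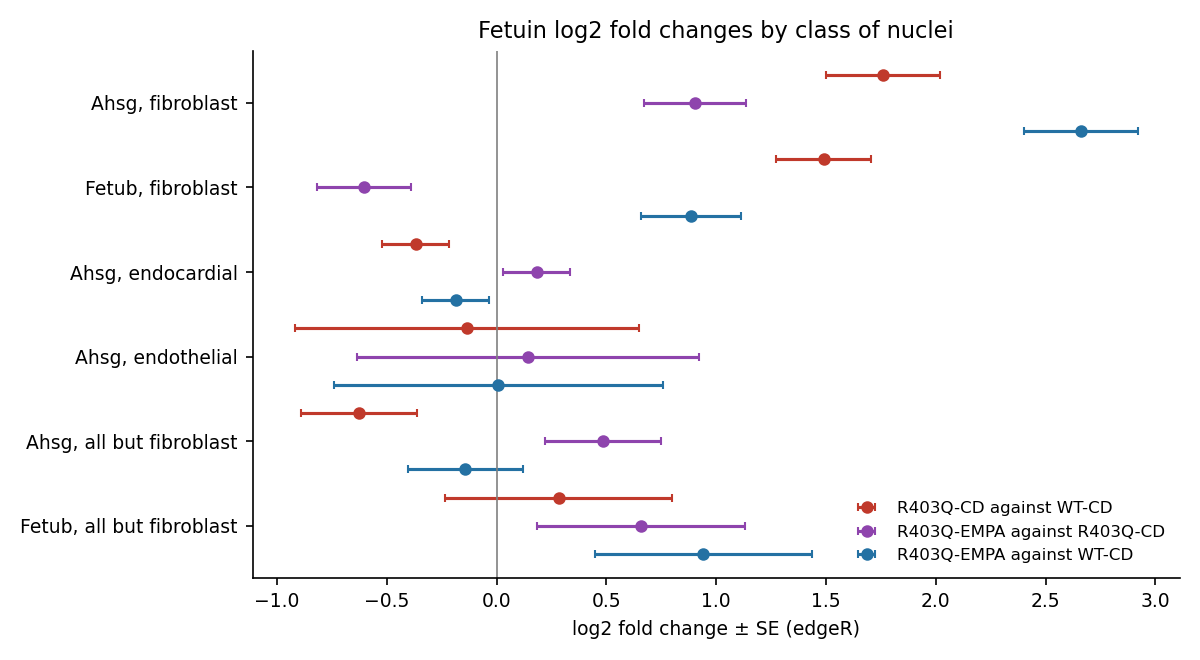
Log2 fold changes (points) with their SE (bars) from edgeR for each fetuin and class that could be fitted, coloured by comparison; R403Q-CD against WT-CD in fibroblast-like nuclei is the contrast that chose the genes, and each other fibroblast comparison shares a group with it. Ahsg in fibroblast-like nuclei has the highest value, 2.66 for R403Q-EMPA against WT-CD, and the endocardial-like values lie between -0.37 and 0.18.

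The 2 neighbouring genes were seen in the same fibroblast-like nucleus more often than their own shares give. Both were detected in 4 and 2 nuclei (WT-CD), 13 and 13 (R403Q-CD), and 14 and 4 (R403Q-EMPA), 50 in all, whereas independent detection gives 0.738 and 0.514, 2.87 and 4.71, and 6.17 and 1.55, or 16.6 in all. The log2 ratio of observed to expected, with 0.5 added to both, was 1.47 ± 0.376 and positive in 6 of 6 libraries (exact permutation p = 0.03125). With the expected number taken within clusters it was 1.46, and within 5 bins of depth, an alternative chosen after seeing the data, it was 1.37. In nuclei thinned to 500 UMIs 0 held both genes against 0.429 expected. The log2 ratio was then -0.188, with 0 of 6 libraries higher (exact permutation p = 0.03125). Where no nucleus holds both, a library can only fall below its expected number, so the thinned test cannot decide the question. In R403Q-CD, 11.2% and 12.1% of Fetub-positive nuclei also held Ahsg, against 2.03% and 3.96% of Fetub-negative nuclei. In endocardial-like nuclei 18 nuclei held both against 9.77 expected (log2 ratio 0.61 ± 0.393, positive in 5 of 6 libraries, exact permutation p = 0.0625).

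**Figure D5:**
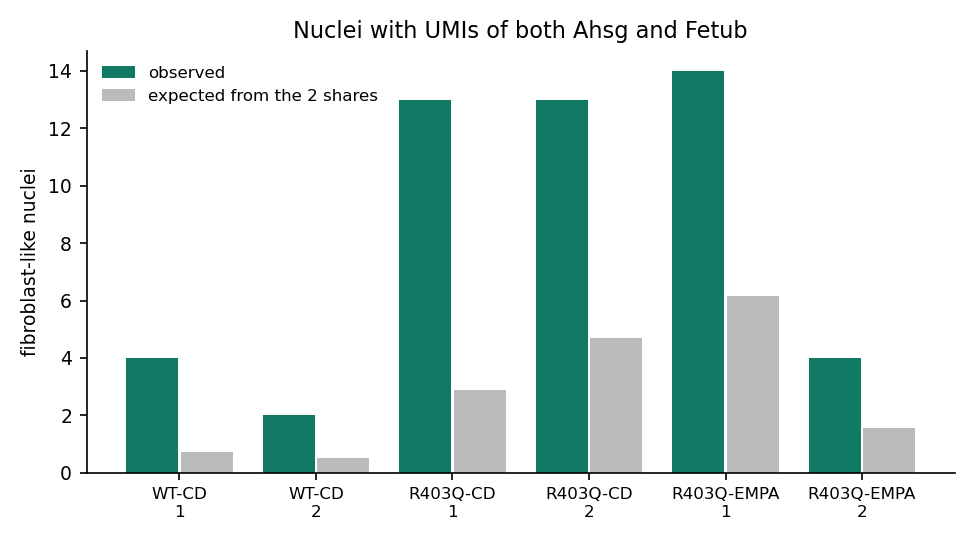
Fibroblast-like nuclei with UMIs of both Ahsg and Fetub in each library (green bars) and the number expected if the 2 genes were detected independently (grey bars). Every observed bar is above its expected bar, by 4 against 0.738 in WT-CD replicate 1 and by 14 against 6.17 in R403Q-EMPA replicate 1.

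Genes whose level over 10 classes and 6 libraries (60 points, which share library and depth) was most like that of Ahsg were Add2, a cytoskeletal adducin (Pearson r 0.899 on log2(CPM + 1)), the antisense transcript Ptgs2os (0.861), the organic anion transporter Slco1a4 (0.856), Sytl5 (0.846) and the transcription factor Sall1 (0.84), all highest in endocardial-like nuclei. Those most like Fetub were Sfrp4, a secreted Wnt antagonist (0.818), Nlgn3 (0.815), Myoc (0.804), Adam5 (0.799) and the matrix protease Mmp3 (0.773), all highest in fibroblast-like nuclei. Add2 and Slco1a4 were, like Ahsg, also present in fibroblast-like nuclei, at 5.44 and 19.3 CPM against 68.0 and 207 CPM in endocardial-like nuclei, while Sytl5 and Sall1 were under 0.4 CPM there. Between Ahsg and Fetub r was 0.576.

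The 414 fibroblast-like nuclei with an Ahsg UMI at full depth were compared with the 13733 without after each nucleus was thinned to 500 UMIs. The positive nuclei had 3.12 times the Csmd1 level of the others, 2.28 times that of Ndrg2, 2.20 times that of Mgp, 2.12 times that of the complement gene C7 and 1.80 times that of Zfp871. Those with a Fetub UMI at full depth had 1.97 times the Mgp level, followed by Rpl7 (1.91), Aebp1 (1.86), Pigk (1.78) and Cst3 (1.77). Mgp encodes matrix Gla protein, like fetuin-A an inhibitor of calcification, and Cst3 encodes cystatin C, the main secreted cystatin. These ratios pool the nuclei of 6 libraries and have no test, so they mix differences between libraries with differences between nuclei. R403Q-EMPA replicate 1 gave 128 of the 414 Ahsg-positive nuclei from 1659 of the 14147 fibroblast-like nuclei. Its Mgp level in this class was 1771 CPM, against 356 to 886 CPM in the other libraries.

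The closest kin of the fetuins were near absent, and no neighbouring gene was called by edgeR. Hrg and the kininogens Kng1 and Kng2, the closest relatives, which follow Fetub on the chromosome, had 3, 4 and 7 UMIs in all nuclei. Of 16 neighbouring genes within 500 kb in the files, these 3 included, 6 were tested in fibroblast-like nuclei and 0 were called in any comparison by edgeR (unadjusted p under 0.05 in 0, 1 and 1, and DESeq2 called 0, 1 and 1). The chaperone gene Dnajb11, named after its values were seen, had the smallest p of these, with 28.0 and 31.3 CPM in R403Q-CD and 55.2 to 61.6 CPM in R403Q-EMPA (log2 fold change 0.93 ± 0.17, edgeR adjusted p = 0.0659). Against the 41.4 and 28.7 CPM of WT-CD its log2 fold change in R403Q-EMPA was 0.70 ± 0.17 (edgeR adjusted p = 0.0925), so that, like Ahsg, it was higher in both R403Q-EMPA libraries than in the other 4, and in R403Q-CD against WT-CD it was -0.23 ± 0.17 (edgeR adjusted p = 1). The median log2 fold change of the 6 was -0.11, 0.30 and 0.01 in the 3 comparisons, where that of all genes was -0.0077, 0.0012 and -0.0045. Of all 15069 genes tested in these nuclei, 456, 2007 and 2151 had an unadjusted p under 0.05, and DESeq2 called 9, 257 and 409.

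Of 14 other cystatins, 3 (Cst3, Cstb and Cst6) were tested and 0 were called by edgeR, with 0, 2 and 1 at an unadjusted p under 0.05 (DESeq2 called 0 in each comparison). Cst3 had 282 and 95.6 CPM in WT-CD fibroblast-like nuclei, 122 and 174 CPM in R403Q-CD, and 358 and 267 CPM in R403Q-EMPA, so that the WT-CD libraries were farther apart than the group means. Of 33 genes for fetuin partners and mineral control, 25 were tested in fibroblast-like nuclei. Over all 15069 genes tested there, 456, 2007 and 2151 had an unadjusted p under 0.05 in the 3 comparisons. For these, edgeR called 0%, 0.378% and 1.21%, and DESeq2 called 9, 257 and 409 genes. Of the 25, edgeR called 0 when R403Q-CD was compared with WT-CD (2 at an unadjusted p under 0.05) or R403Q-EMPA with R403Q-CD (10). In R403Q-EMPA against WT-CD 10 had an unadjusted p under 0.05. DESeq2 called 0, 2 and 3 of the 25 over the 3 comparisons. By edgeR 1 gene was called, higher in R403Q-EMPA than in WT-CD. That gene was Spp1, the mineral-binding protein osteopontin, named after its values were seen, with 0 and 0 UMIs (WT-CD), 17 and 4 (R403Q-CD), and 164 and 20 (R403Q-EMPA). Its edgeR adjusted p was 0.0383, but 0.127 without R403Q-EMPA replicate 1, which held most of its UMIs, and 0.058 or 0.0854 without WT-CD replicate 1 or 2. Mgp had 886 and 356 CPM, 464 and 597 CPM, and 1771 and 848 CPM in the same order and was not called (log2 fold change 1.25 ± 0.41 against R403Q-CD, edgeR adjusted p = 0.254).
The receptors and ligands with most UMIs on that list, Tgfbr3, Bmp6, Insr, Bmpr2 and Bmpr1a, were not called either, and the median of the 25 was 0.03, 0.15 and 0.19 in the 3 comparisons. In endocardial-like nuclei, where 20 of the list were tested, 0 were called by edgeR (unadjusted p under 0.05 in 0, 7 and 5, and DESeq2 called 0, 1 and 1), and Bmp6 had the smallest p, at -0.90 ± 0.21 against WT-CD (edgeR adjusted p = 0.0508). Over all 11502 genes tested in that class, 418, 1299 and 1698 had an unadjusted p under 0.05, and DESeq2 called 0, 118 and 193.

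Since both fetuins are liver genes, 24 hepatocyte markers were counted. Of these, 6 were at 0 in all nuclei (Apoc3, Fga, Fgb, Cyp3a11, Mup3 and Mup20), 10 more had at most 12 UMIs, and Alb, the most abundant liver transcript, had 1 UMI. Their sum over all nuclei was 2.66 to 9.76 CPM by library, and in fibroblast-like nuclei it was 2.69 and 3.33 CPM in WT-CD, 1.51 and 3.73 CPM in R403Q-CD, and 11.4 and 5.38 CPM in R403Q-EMPA. The sum was highest in R403Q-EMPA replicate 1, where Hp gave 51 UMIs and Cyp2e1 22, and its part in the Ahsg level of that library was not tested. In endocardial-like nuclei the sum was 7.68 to 14.0 CPM, most of it from Serpina1b at 4.72 to 12.0 CPM, whereas Hp had at most 2 UMIs per library there. Fibroblast-like nuclei positive for Ahsg at full depth held 0.0483 hepatocyte marker UMIs per 10000 after thinning, and negative ones 0.035. For Fetub the values went the other way, at 0 in positive and 0.0365 in negative nuclei. Thinning leaves so few of these UMIs in positive nuclei that the rates cannot show a difference for either gene.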

How the data were processed

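Left ventricular nuclei in 6 libraries were profiled with 10x droplets. The authors deposited whole-number UMI counts per gene and barcode as filtered matrices made with Cell Ranger 8.0.1 on GRCm39, per the submitters' processing notes; the handling of intronic reads and the gene annotation are not given in the sources used here. Library totals were 31787308 to 45397128 UMIs.

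Barcodes with at least 500 UMIs, 300 genes and at most 5% mitochondrial UMIs were kept (48438), and 2433 predicted doublets were removed with scanpy 1.11.5. Clusters were built from 2000 variable genes, 30 components, 15 neighbours and Leiden resolution 1 (leidenalg 0.10.2) and named from fixed markers, so classes may differ from those of the study. The members and gene lists were chosen with earlier results of these data known.

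UMIs were summed per library and class. Groups were compared with edgeR 4.0.16 (TMM, filterByExpr, quasi-likelihood test, 1 fit over 6 libraries, Benjamini-Hochberg over all genes tested, threshold 0.05), with DESeq2 1.42.0 as an alternative, in R 4.3.3; the step was tested on simulated data. Classes were compared within libraries by an exact two-sided sign-flip permutation test of log2(CPM + 1), or of the percentage of positive nuclei thinned to 500 UMIs. Intervals and floors of 3 counts cover counting error only. Named genes were the members, the 5 genes most like each in level, the 5 most raised in positive nuclei, and the 6 genes of each list with most UMIs. Libraries of 1 group differed by more than sampling noise. Alternatives were doublets kept, no mitochondrial filter, members kept among the clustering genes, resolution 0.5, other scalings, tools and filters, and each library left out. A genome of the counts' build was not used here.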

Additional observations from a re-analysis of the deposited data

Results flagged for a closer look

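For Ahsg, both R403Q-CD libraries lay below both WT-CD libraries in endocardial-like nuclei (ratio of means 0.777) and above them in fibroblast-like nuclei (ratio 3.39). The directions were opposite, and the difference between the classes was not tested.

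For Fetub, R403Q-EMPA lay above R403Q-CD in endocardial-like nuclei (ratio of means 2.20, on 15 against 8 UMIs, with 1 of the R403Q-CD libraries at 0) and below it in fibroblast-like nuclei (ratio 0.671), a difference that was not tested either.

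Among the barcodes left out by the filters, Ahsg reached 21.4 CPM in R403Q-EMPA replicate 2, above the 18.4 and 11.6 CPM of WT-CD. Fetub reached 3.49 CPM in R403Q-CD replicate 2 and 3.31 CPM in R403Q-EMPA replicate 2, above the 3.22 and 1.29 CPM of WT-CD. In R403Q-EMPA replicate 2, 149 of these 175 Ahsg UMIs were in barcodes other than predicted doublets.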

How the results depend on the processing

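Replicates were numbered in accession order. No paired analysis was possible because the labels give no number that ties libraries across groups. With 5 libraries the smallest exact permutation p is 0.0625, so comparisons of fibroblast-like with cardiomyocyte-like nuclei could not pass when 1 library was left out. The ranges were then 2.67 to 3.26 (Ahsg) and 3.16 to 3.45 (Fetub) on the log2(CPM + 1) scale, 0.522 to 0.841 and 0.356 to 0.499 percentage points for thinned shares, and 1.36 to 1.53 for joint detection. With predicted doublets kept, the Ahsg CPM difference was 2.31 (exact permutation p = 0.0625), and its other alternatives gave at most 3.99. In nuclei thinned to 500 UMIs no nucleus held both genes (0.429 expected, log2 ratio -0.188), as thinning leaves too few UMIs.

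In fibroblast-like nuclei the log2 fold change of Ahsg in R403Q-CD against WT-CD was 1.45 without R403Q-CD replicate 2 and 2.03 without R403Q-CD replicate 1. Without a filter on low counts, Ahsg in R403Q-EMPA against R403Q-CD passed (0.89, edgeR adjusted p = 0.00176), in a setting that called 997 genes instead of 57. Fetub in R403Q-EMPA against WT-CD (0.89) was also called then, where 1104 genes were called instead of 183, but that comparison is described without a test. The cause was not tested. Both comparisons use libraries whose values took part in choosing the genes.

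In endothelial-like nuclei Ahsg ranged from -2.27 to 0.66, from -0.66 to 2.26 and from -0.43 to 0.43 over the 3 comparisons with 1 library left out, and was -0.058 by DESeq2 in the last. In all nuclei except fibroblast-like ones, Ahsg in R403Q-EMPA against WT-CD ranged from -0.38 to 0.075 and Fetub in R403Q-CD against WT-CD from -0.29 to 0.67. None of these was called. Other alternatives kept direction and call.

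Counts of called genes depended on the tool. Those of edgeR, of DESeq2 and of edgeR without a filter were, for the untreated mutant against wild type, then the treated against the untreated mutant, then the treated mutant against wild type, 0, 9 and 104, then 57, 257 and 997, then 183, 409 and 1104 in fibroblast-like nuclei. In endocardial-like nuclei they were 0, 0 and 44, then 98, 118 and 503, then 251, 193 and 793. In endothelial-like nuclei they were 0, 5 and 73, then 34, 120 and 512, then 114, 211 and 785. Outside fibroblast-like nuclei as a whole they were 0, 49 and 82, then 12, 376 and 608, then 508, 1164 and 1609.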
